A study of Bos taurus with 12 samples.

Results

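Theca cells of medium bovine follicles (5 to 10 mm across) were compared with theca cells of small follicles (up to 5 mm), on 4 of the 12 arrays of the study. The arrays were chosen by their titles, 2 for theca of medium follicles and 2 for theca of small follicles. Each RNA sample was a pool: the labels speak of 20 to 40 follicles of 1 size, and the design text of 20 to 40 ovaries from 6 to 10 animals. The ovaries were untreated and came from young cycling heifers in the follicular stage, with no corpus luteum. The other 8 arrays held theca of large follicles (over 10 mm) and granulosa cells of the 3 sizes, and they entered the model of the spread. The comparison asks which theca transcripts differ as antral follicles grow past the small stage. The labels call the replicates separate biological ones. They leave unsaid whether 2 pools could hold follicles of the same animal, so the p-values measure the spread between pools. The description field names theca for all 12 samples, and the titles were used for the groups.

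The theca is the vascular outer coat of the follicle. Its steroid cells answer luteinizing hormone and make androgens, which the granulosa cells inside the follicle convert to oestrogens. It also holds blood vessels, fibroblasts, smooth muscle cells and leukocytes within a matrix that stretches as the follicle fills with fluid. The labels name the layer but not how it was separated from granulosa, and in bulk samples fewer cells of a type and less RNA per cell cannot be told apart.

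The theca steroid cell markers summed to more signal on the theca arrays than on the granulosa arrays, and markers listed for granulosa also gave signal in theca. The 10 theca steroid cell markers, among them the androgen-making enzyme CYP17A1 and the peptide hormone INSL3, summed to a signal of 23887 and 26367 in medium theca, against 35654 and 22655 in small theca. On the 4 granulosa arrays of the same sizes that sum was 6795 to 8971. The 16 granulosa markers summed to 28705 and 17600 in medium theca, against 14550 and 19273 in small theca, and to 39011 to 45172 on those granulosa arrays. Of the 16 granulosa markers, 1 and 3 had a signal below 22.5, the cut of the filter, in medium theca, against 4 and 2 in small theca. Of the 10 theca steroid cell markers 0 were below that cut on each of the 4 theca arrays. Among the 4 theca arrays the highest and the lowest sums of granulosa markers were those of medium replicate 1 and small replicate 1. The members of both lists were unlike. Of the theca markers, CYP17A1 had 2936 and 3860 in medium theca, against 75.8 and 65.1 in medium granulosa. CYP11A1 had 2653 and 3068 in medium theca, against 2824 and 2982 in medium granulosa. Of the granulosa markers, GJA1 had 4408 to 6088 on the theca arrays and 5473 to 6295 on the 4 granulosa arrays of the same sizes. KRT8 had 0.6 to 15.9 on the theca arrays and 49.5 to 107.5 on those granulosa arrays. Neither sum is therefore a measure of its own cell type alone.

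Small replicate 1 stood apart from the other arrays before any comparison. Its GAPDH control transcript gave 8.36 times as much signal at the 3' end as at the 5' end, against 1.07 and 1.20 in medium theca and 1.30 in small replicate 2. The same tilt was present in the bacterial transcripts dap, phe, thr and lys, which in the array maker's standard procedure are added to the RNA before it is labelled. Their ratios were 27.8, 41.4, 16.2 and 6.45 on small replicate 1, while on medium replicate 1 they were 1.86, 1.74, 2.16 and 0.857 and on small replicate 2 they were 1.54, 1.58, 2.15 and 1.02. The bioB and cre transcripts, which join after labelling, had ratios of 1.002 and 1.35 on small replicate 1, within the range of the other arrays. The replicates correlated across probe sets with a Spearman coefficient of 0.956 in medium theca and 0.852 in small theca. The small arrays are therefore also given singly below.

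**Figure D1:**
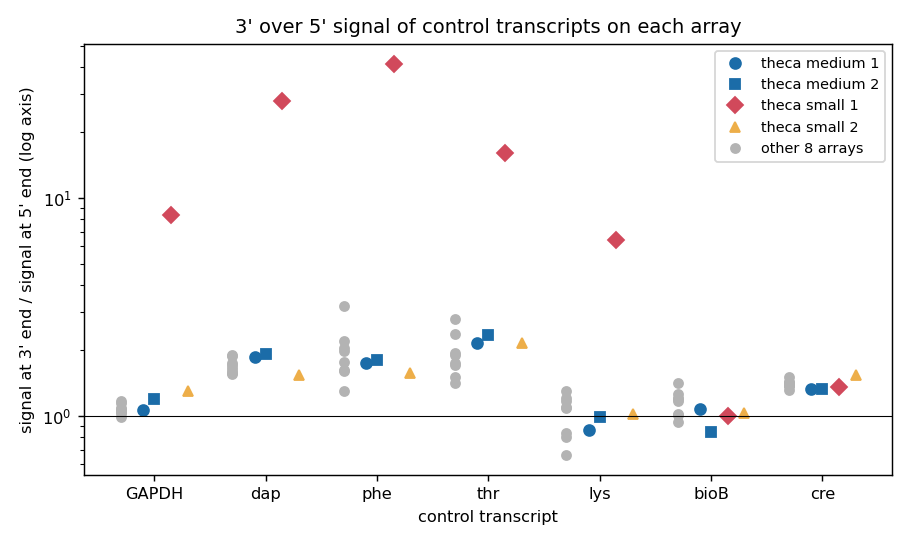
Ratio of 3' to 5' signal (log axis) of 7 control transcripts, with 1 point per array: theca of medium follicles in blue, theca of small follicles in red (replicate 1) and yellow (replicate 2), and the other 8 arrays in grey. Small replicate 1 is above all other arrays for GAPDH (8.36), dap, phe (41.4), thr and lys, and among them for bioB and cre.

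Medium and small theca differed in few probe sets beyond the spread between arrays. Of 17478 tested probe sets 2 were called, that is 0.0114%, both higher in medium theca (limma, adjusted p under 0.05). One was MFAP5, a microfibril protein that associates with elastin fibres, and the other had no gene symbol. No probe set was called lower, while 551 higher and 514 lower ones had an unadjusted p under 0.05, or 3.15% and 2.94% of those tested. The signals of the groups did not overlap in 2882 probe sets that were higher in medium theca (16.5%) and in 3520 that were lower (20.1%). By their means 47.3% of the probe sets were higher and 52.7% lower. For a single probe set, the smallest p of an exact permutation test with 2 arrays a group is 0.333.

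The count depended on which small array was used. Without small replicate 1 there were 0 calls, with 886 probe sets at an unadjusted p under 0.05. Without small replicate 2 there were 244, of which 222 were higher and 22 lower in medium theca. Without medium replicate 1 there were 0, and without medium replicate 2 there were 4. The mean of the medium arrays was at least 2-fold above small replicate 1 in 1502 probe sets and below it in 849, against 292 and 415 for small replicate 2. Only 60 were at least 2-fold higher than both small arrays and 69 at least 2-fold lower than both, and 29 moved by 2-fold in opposite directions.

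**Figure D2:**
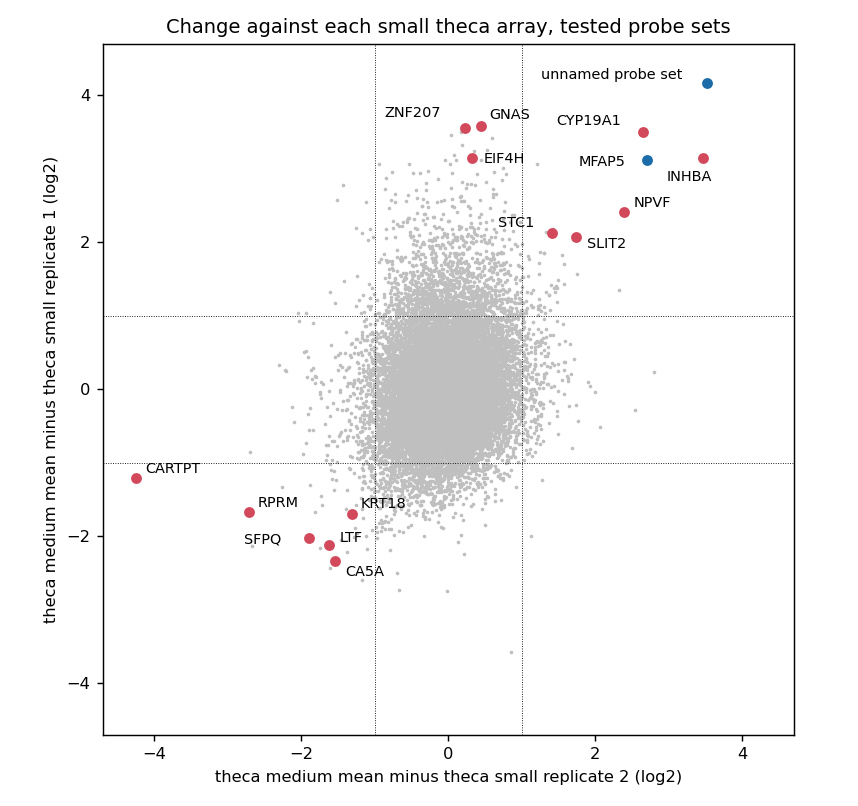
Log2 difference of the mean of medium theca from small replicate 2 (horizontal) and from small replicate 1 (vertical), 1 point for each of the 17478 tested probe sets, with dotted lines at 2-fold. Blue points are the 2 called probe sets and red points are other labelled genes; MFAP5 is 3.12 above small replicate 1 and 2.71 above small replicate 2, while GNAS, ZNF207 and EIF4H are far above small replicate 1 alone.

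MFAP5 rose in medium theca. Its signal was 656 and 433 in medium theca, against 47.3 and 68.0 in small theca, and the groups were more than 5-fold apart at their nearest arrays (2.42 on the log2 scale). The change on the log2(signal + 16) scale was 2.91 ± 0.36 (standard error of the model, n = 2 arrays per group), a 7.53-fold rise with a limma adjusted p = 0.0238. Large theca had 135 and 203, between the small and the medium arrays. In granulosa cells the gene was dim, with 42.9 and 21.5 in medium and 20.8 and 21.1 in small follicles. The theca change exceeded the granulosa change by 2.57 ± 0.51 (limma interaction, unadjusted p = 0.000199), which did not pass the adjustment over all tested probe sets (limma adjusted p = 0.9996). Over the 16 alternative settings the theca change was 2.30 to 3.21, with a limma adjusted p of 0.00634 to 0.840. The call was kept in 8 of the 16 and lost in 8. It was lost without small replicate 1 (limma adjusted p = 0.225), without both arrays that stand apart (0.163) and without medium replicate 1 (0.648). It was also lost with log2(signal + 1) (0.158), with no filter (0.0518), with array weights (0.0751), with theca arrays only (0.469) and with the 4 arrays only (0.840). Leaving out single granulosa arrays was not among the 16. The call was lost without either small granulosa array and kept without either medium one.

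Other elastic fibre genes lay higher in medium theca, although none of them was called. Elastic fibres are cores of elastin on a scaffold of microfibrils, joined by cross-linking enzymes, and they let a tissue recoil after stretch. Of 11 tested genes of the list 10 were higher in the mean, and in 5 the arrays did not overlap, all 5 higher. The called gene MFAP5 is counted among the 11, the 10 and the 5, and it enters the medians below. Of all 7942 tested genes, each with its brightest probe set, 50.6% were higher and 18.8% higher without overlap. The median change was 0.85, with 0.55 against small replicate 1 and 1.07 against small replicate 2, while the median of all tested genes was 0.01. In granulosa cells the median of the same 11 genes was 0.11.

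Among the scaffold and assembly genes, MFAP4, a microfibril-associated glycoprotein, had 224 and 170 in medium theca, against 62.9 and 64.2 in small theca (1.41 ± 0.39, limma adjusted p = 0.813). FBLN5, which guides elastin onto microfibrils, had 2130 and 1802 in medium theca, against 1199 and 922 in small theca (0.89 ± 0.38). Both genes had their lowest medium array above their highest small array. Among the cross-linking enzymes, lysyl oxidase LOX had 220 and 173 in medium theca, against 47.7 and 107 in small theca (1.26 ± 0.36). Its relative LOXL1 had 901 and 679 in medium theca, against 387 and 379 in small theca (1.001 ± 0.61). Elastin itself overlapped: ELN had 201 and 119 in medium theca, against 178 and 47.5 in small theca. The main microfibril protein FBN1 also overlapped, with 1205 and 1058 in medium theca, against 765 and 1139 in small theca. EMILIN1, a glycoprotein of the elastin surface, was the 1 member with a lower mean in medium theca (-0.40 ± 0.55).

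**Figure D3:**
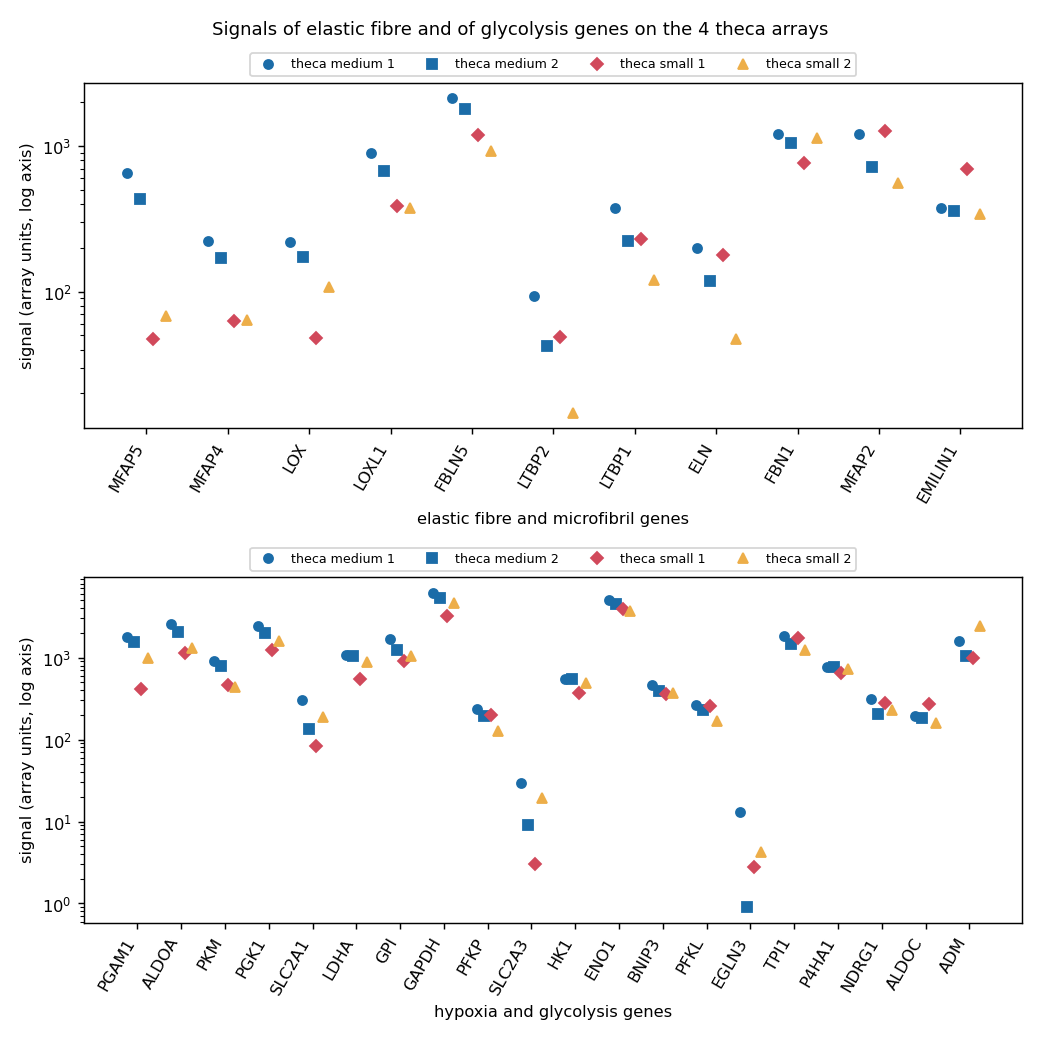
Signal (log axis) of each tested elastic fibre gene (top) and each tested hypoxia and glycolysis gene (bottom) on the 2 arrays of medium theca (blue) and the 2 of small theca (red and yellow). MFAP5, MFAP4, LOX, LOXL1 and FBLN5 have both blue points above both small points, whereas ELN, FBN1, MFAP2 and EMILIN1 overlap; in the lower panel the blue points of PGAM1, ALDOA and PKM are above both small points and those of ADM overlap them.

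The second called probe set has no gene symbol in the annotation used and is called the unnamed probe set here. It had 3053 and 820 in medium theca, against 72.9 and 123 in small theca, a change of 3.85 ± 0.53 (14.4-fold, limma adjusted p = 0.0389). It was also bright in large theca, with 2115 and 4467, and in granulosa cells, with 6328 and 5504 in medium and 1679 and 1248 in small follicles. The call was kept under 4 of 16 alternative settings, and without small replicate 1 the limma adjusted p was 0.367, in a range of 0.00567 to 0.840 over the settings.

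A similar set of levels was measured for 2 genes that were bright in granulosa cells of medium follicles. INHBA, the subunit from which activin A and inhibin A are built, had 2847 and 956 in medium theca, against 171 and 135 in small theca. That is a change of 3.31 ± 0.50, which missed the threshold (limma adjusted p = 0.0634, and 0.0188 to 0.9996 over the settings), and it passed under 4 settings, 1 of them without small replicate 2. CYP19A1, the aromatase that turns androgens into oestrogens, had 912 and 184 in medium theca, against 21.9 and 52.8 in small theca (3.08 ± 0.63, limma adjusted p = 0.463). A second, dimmer CYP19A1 probe set differed by 0.77 (limma adjusted p = 0.834). For INHBA, the brighter CYP19A1 probe set and the unnamed one, medium replicate 1 was the brighter medium array, and both medium arrays were above both small arrays.

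The granulosa arrays of medium and small follicles shared that direction. INHBA had 6565 and 5362 in medium granulosa, against 1205 and 1078 in small granulosa, and CYP19A1 had 3114 and 1820, against 113 and 126. The theca change minus the granulosa change was 0.95 ± 0.70 for INHBA and -1.07 ± 0.89 for CYP19A1, with a limma interaction adjusted p = 0.9996 for both. Across theca of small, medium and large follicles the mean log2 level of both genes was lowest in small and highest in large theca, and the large theca signals were 2622 and 5756 for INHBA and 1633 and 4279 for CYP19A1. The part of granulosa transcripts in these values was not tested.

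The granulosa marker list as a whole gave mixed values. Of its 16 tested members 5 were higher without overlap, INHBA and CYP19A1 among them, and 2 were lower without overlap, beside 18.8% and 16.9% of all tested genes. The median change was 0.17 (0.44 against small replicate 1 and -0.12 against small replicate 2). FST, which binds and blocks activin, had 5665 and 2940 in medium theca, against 1292 and 3097 in small theca. The inhibin subunit INHA had 6866 and 4317 in medium theca, against 3972 and 2930 in small theca. FSHR, the receptor for follicle-stimulating hormone on granulosa cells, had 50.3 and 16.9 in medium theca, against 5.0 and 63.3 in small theca. FST and FSHR thus overlapped between the groups, and INHA did not overlap by a small margin (0.12 on the log2 scale). AMH, a hormone of granulosa cells in young follicles, had 72.6 and 106 in medium theca, against 130 and 172 in small theca (-0.67 ± 0.57). HSD17B1, which makes oestradiol from oestrone, differed by 0.38 ± 0.66. FOXL2, also higher without overlap, had 54.5 and 32.6 in medium theca, against 3.7 and 1.4 in small theca (1.66 ± 0.60, limma adjusted p = 0.813). A second FOXL2 probe set, under the filter, differed by -0.56.

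**Figure D4:**
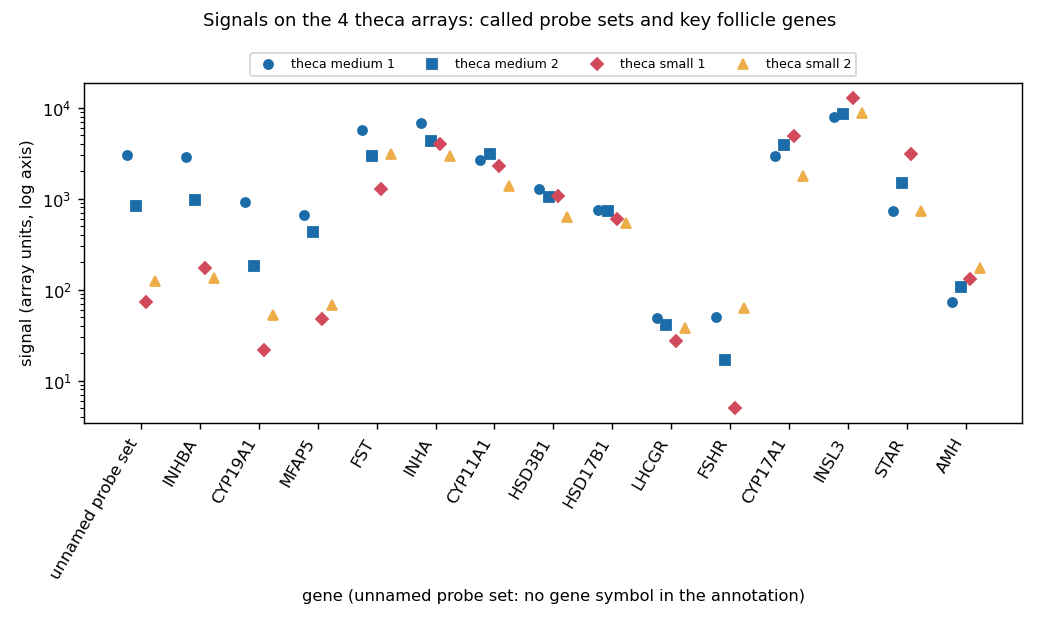
Signal (log axis) of the 2 called probe sets and 13 key follicle genes on the 2 arrays of medium theca (blue) and the 2 of small theca (red and yellow), ordered by their mean change. The unnamed probe set, INHBA, CYP19A1 and MFAP5 have both medium arrays well above both small arrays; CYP17A1, STAR, FST and FSHR overlap, and for CYP17A1 and STAR small replicate 1 is the brightest and small replicate 2 the dimmest array.

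No gene of androgen production was called, and the enzyme CYP17A1 and the carrier STAR differed more between the small arrays than between the groups. CYP17A1 had 2936 and 3860 in medium theca, against 4863 and 1786 in small theca, so that small replicate 1 was above both medium arrays and small replicate 2 below both. STAR, which carries cholesterol into mitochondria, had 732 and 1481 in medium theca, against 3066 and 730 in small theca. INSL3 had 7811 and 8463 in medium theca, against 12717 and 8706 in small theca, a change of -0.37 ± 0.47. CYP11A1, which cuts the cholesterol side chain, had 2653 and 3068 in medium theca, against 2304 and 1391 in small theca (0.67 ± 0.39). HSD3B1, the next enzyme of the path, differed by 0.50 ± 0.37, and LHCGR, the receptor for luteinizing hormone, by 0.33 ± 0.36. The limma adjusted p-values of these 6 genes were between 0.827 and 0.971.

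Over the whole list of 10 theca steroid cell markers the median was 0.11, but -0.23 against small replicate 1 and 0.52 against small replicate 2. Cholesterol synthesis and uptake genes showed the same split more widely, with a median over 16 genes of -0.16, of -0.88 against small replicate 1 and of 0.38 against small replicate 2. HMGCS1, an early enzyme of cholesterol synthesis, had 845 and 1262 in medium theca, against 4939 and 888 in small theca. CYP51A1, a later enzyme, had 157 and 221 in medium theca, against 648 and 205 in small theca. For both genes the difference lay between small replicate 1 and the other 3 arrays.

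Several genes had a wide gap between the groups without passing the adjusted test. In 27 probe sets (0.154%) the dimmest medium array was at least 2-fold above the brightest small array, and in 36 (0.206%) the brightest medium array was at least 2-fold below the dimmest small one. Of these, 22 and 20 had a gene symbol. The genes of the next 3 paragraphs were chosen after their values were seen, all but CARTPT and UPK1B from these lists.

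NPVF, the precursor of neuropeptides of the RFamide family, had 222 and 259 in medium theca, against 32.0 and 32.6 in small theca (2.40 ± 0.47, limma adjusted p = 0.432). SLIT2, a secreted ligand of ROBO receptors in cell guidance, had 105 and 127 in medium theca, against 15.3 and 23.5 in small theca (1.90 ± 0.37, limma adjusted p = 0.432). STC1, a secreted glycoprotein hormone, had 687 and 821 in medium theca, against 159 and 273 in small theca (1.77 ± 0.42). The mean of large theca minus that of medium theca was -1.09, -1.11 and -0.48 on the log2 scale for these 3 genes, and limma called none of these differences. TAGLN, an actin-binding protein of smooth muscle, had 3665 and 2394 in medium theca, against 1089 and 988 in small theca (1.50 ± 0.55). RARRES1, a gene that responds to retinoic acid, had 4461 and 2749 in medium theca, against 1359 and 684 in small theca (1.84 ± 0.53). TAGLN and RARRES1 were similarly bright in large theca, with 3969 and 2942 for TAGLN and 3803 and 2569 for RARRES1. Some wide gaps rested on 1 probe set of several: CNN2, a calponin, differed by 1.49 on 1 probe set and by 0.64 on a brighter one.

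Among the genes that were dimmer in medium theca, RPRM, which in human cells halts the cell cycle downstream of p53, had 0.7 and 6.4 in medium theca, against 45.7 and 111 in small theca (-2.19 ± 0.41, limma adjusted p = 0.432). LTF, the iron-binding protein lactoferrin, had 75.5 and 51.5 in medium theca, against 326 and 227 in small theca (-1.87 ± 0.46). KRT18, a keratin of simple epithelia and of granulosa cells, had 82.9 and 75.9 in medium theca, against 293 and 221 in small theca (-1.51 ± 0.40). In all 3 both small arrays were far above both medium arrays, and the genes were brighter in granulosa of the same size, where their changes were -2.68, -2.40 and -2.38. CARTPT, the precursor of the CART peptides, had the largest mean difference downward, with 23.9 and 12.8 in medium theca, against 62.4 and 627 in small theca, and -3.90 in granulosa. Its value rested mainly on small replicate 2 (-4.24, and -1.21 against small replicate 1). Of the 36 probe sets with a wide downward gap 10 (27.8%) were also at least 2-fold lower in medium than in small granulosa, beside 1.21% of all tested probe sets. For the 27 with a wide upward gap it was 3 (11.1%), beside 0.795%. The theca and granulosa comparisons share no array, but they may not be independent. The labels leave unsaid whether their pools shared animals, and granulosa RNA in the theca pools was not tested.

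Some genes with a wide downward gap, CA4, CA5A and KRT7, had a signal of at most 26.3 in medium granulosa. In small granulosa CA4 had 32.6 and 15.6, CA5A had 23.7 and 46.9, and KRT7 had 2.9 and 4.0. Their granulosa changes were -0.33, -0.82 and 0.32. CA4, a membrane-bound carbonic anhydrase, had 53.6 and 69.3 in medium theca, against 329 and 243 in small theca (-1.96 ± 0.49). CA5A, its mitochondrial relative, had 8.6 and 16.4 in medium theca, against 127 and 66.3 in small theca (-1.94 ± 0.38, limma adjusted p = 0.432). KRT7, a keratin of surface and ductal epithelia, had 3.2 and 2.9 in medium theca, against 60.2 and 25.5 in small theca (-1.56 ± 0.37). Over the 6 tested members of the surface epithelium and mesothelium list, KRT7 among them, the median was -0.28, with 0.13 against small replicate 1 and -0.38 against small replicate 2. The summed signal of the 7 members with a probe set was 517 and 362 in medium theca, against 429 and 1147 in small theca, most of it UPK1B. UPK1B was brighter in granulosa than in theca of the same size, with 939 and 2268 in medium and 2820 and 3892 in small granulosa. The sum is therefore not a measure of surface epithelium alone. Some downward gaps also rested on 1 probe set, as for the splicing factor SFPQ, with -1.96 on 1 probe set and -0.62 and 0.20 on 2 dimmer ones, and for the tropomyosin TPM1, with -1.38 and, on the brighter one, -0.27.

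Transcripts of energy metabolism lay slightly higher in medium theca, with no member called. Of 20 tested hypoxia and glycolysis genes 18 were higher in the mean and 11 did not overlap, all 11 higher, beside 50.6% and 18.8% of all tested genes. The median was 0.37 (0.45 against small replicate 1 and 0.29 against small replicate 2). The glycolytic enzyme PGAM1 had 1771 and 1562 in medium theca, against 418 and 978 in small theca (1.35 ± 0.41). The aldolase ALDOA had 2576 and 2074 in medium theca, against 1153 and 1300 in small theca (0.91 ± 0.33). The pyruvate kinase PKM had 912 and 783 in medium theca, against 466 and 442 in small theca (0.87 ± 0.37). These 3 enzymes had both medium arrays above both small arrays, whereas the glucose transporter SLC2A1 and the peptide ADM, which is induced by low oxygen, overlapped. In granulosa cells the list had a median of 0.07.

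Among 32 tested genes of oxidative phosphorylation 26 were higher, 17 without overlap, and 2 were lower without overlap, beside 50.6%, 18.8% and 16.9% of all tested genes. The median was 0.27, and it was 0.27 and 0.24 against the small arrays taken singly. CYC1, the cytochrome c1 of complex III, had 962 and 876 in medium theca, against 606 and 575 in small theca (0.62, limma adjusted p = 0.827). In granulosa cells the median of the list was 0.02.

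Cell division genes were higher mainly against small replicate 1. Of 26 tested genes 22 were higher and 11 did not overlap, all 11 higher, beside 50.6% and 18.8% of all tested genes. The median was 0.45, and it was 0.68 against small replicate 1 and 0.08 against small replicate 2. The cyclin CCNB1 had 156 and 193 in medium theca, against 53.7 and 103 in small theca (1.06 ± 0.36). The ubiquitin carrier UBE2C, which acts in mitosis, had 460 and 540 in medium theca, against 133 and 340 in small theca (1.16 ± 0.49). PCNA, the sliding clamp of DNA replication, overlapped, with 605 and 998 in medium theca, against 509 and 969 in small theca. The granulosa median of the list was 0.44.

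All 26 tested cytosolic ribosomal protein genes were lower without overlap on the deposited scale (16.9% of all tested genes), with a median of -0.52, but after quantile normalization the median was -0.02 with 12 genes higher and 14 lower. In granulosa cells 25 of the 26 were lower on the deposited scale, with a median of -0.37. With each array centred on its median the theca value was -0.50. The direction for this list therefore depends on how the arrays are scaled. The elastic fibre, glycolysis, oxidative phosphorylation and cell division lists had medians of 0.81, 0.40, 0.24 and 0.45 after quantile normalization.

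**Figure D5:**
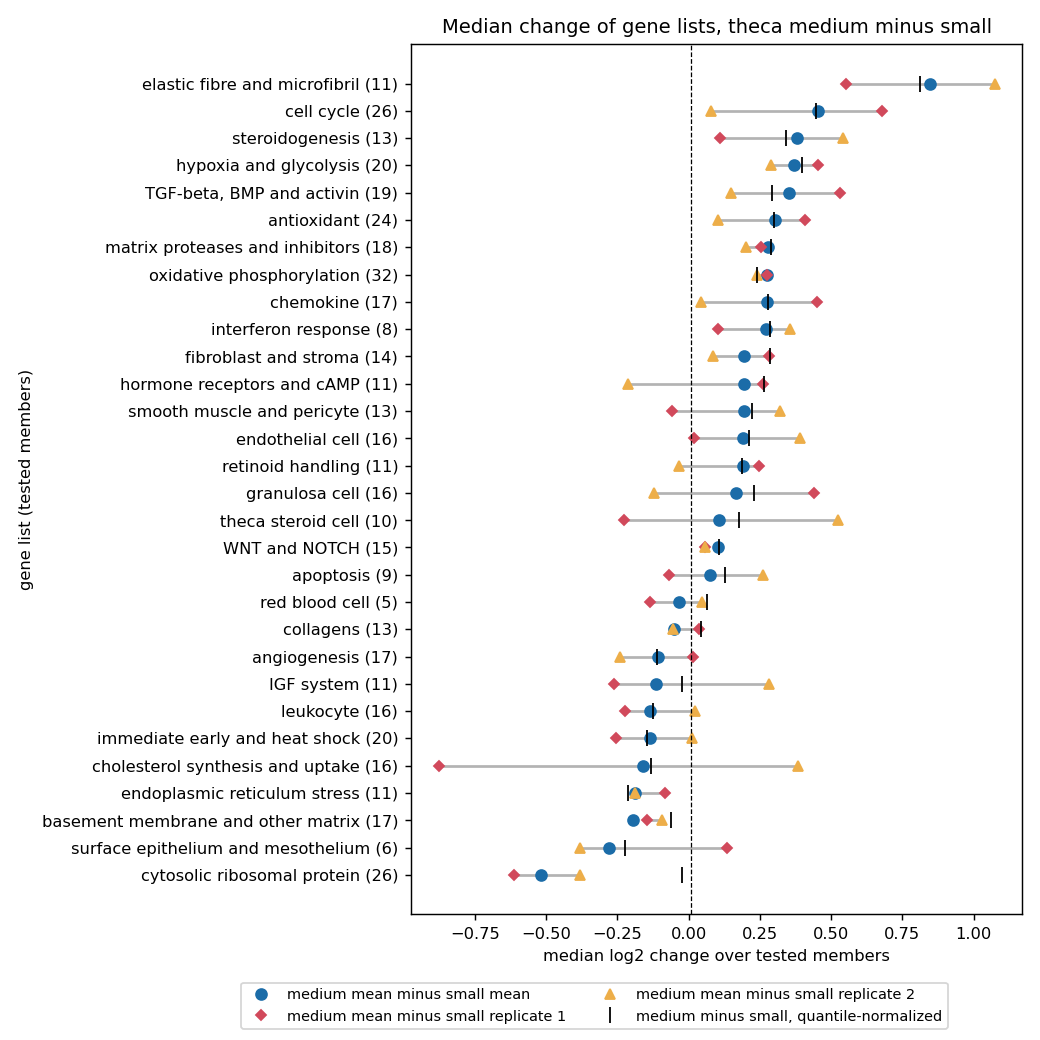
Median log2 change of the tested members of each gene list with at least 5 of them (number in brackets): medium theca minus the mean of small theca (blue), minus small replicate 1 (red), minus small replicate 2 (yellow), and after quantile normalization (black bar), with the median of 7942 tested genes as a dashed line (0.01). The elastic fibre list has the highest median (0.85), the cholesterol list splits widest between them (-0.88 and 0.38), and the ribosomal list (-0.52) moves to -0.02 after quantile normalization.

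The summed markers of the other cell types of the theca layer overlapped between the groups. The 17 endothelial markers with a probe set summed to 2725 and 2430 in medium theca, against 2701 and 2090 in small theca. Among them VWF, the clotting factor that endothelial cells store, had 38.2 and 30.2 in medium theca, against 3.6 and 6.5 in small theca (1.25 ± 0.36, limma adjusted p = 0.813). A second VWF probe set, under the filter, had 0.9 and 2.2 in medium theca, against 1.4 and 1.9 in small theca. PLVAP, a protein of endothelial windows, had 129 and 67.8 in medium theca, against 32.3 and 23.6 in small theca (1.33 ± 0.46). The junction protein CDH5 was less apart (0.84 ± 0.44), and the angiopoietin receptor TEK and the endomucin EMCN overlapped. Of the 16 tested endothelial markers 9 were higher and 7 lower, beside 50.6% and 49.4% of all tested genes. Without overlap 5 were higher and 1 lower, beside 18.8% and 16.9%. Their changes ran from -0.49 for ROBO4 to 1.33 for PLVAP. The median was 0.19 (0.02 against small replicate 1 and 0.39 against small replicate 2).

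Smooth muscle and pericyte markers summed to 21341 and 18065 in medium theca, against 18458 and 12703 in small theca. Apart from TAGLN, the smooth muscle actin ACTA2 did not overlap, with 7727 and 6626 in medium theca, against 4981 and 4244 in small theca (0.64 ± 0.60). The smooth muscle myosin MYH11 lay the other way, with 2074 and 2034 in medium theca, against 2927 and 2396 in small theca. Fibroblast markers summed to 31844 and 32336 in medium theca, against 27536 and 32518 in small theca. The fibril collagen gene COL1A2 had 6708 and 6333 in medium theca, against 5959 and 6194 in small theca. DPT, a small matrix protein that binds decorin, was lower in the mean, with 964 and 525 in medium theca, against 2718 and 1486 in small theca (-1.48 ± 0.56). Leukocyte markers summed to 1816 and 1337 in medium theca, against 1880 and 1675 in small theca. Of their 16 tested members 0 had an unadjusted p under 0.05, beside 6.09% of all tested probe sets.

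Many of the largest mean differences rested on small replicate 1 alone. In 1016 probe sets the medium mean was at least 2-fold above small replicate 1 and within 0.5 (log2) of small replicate 2, and in 149 it was at least 2-fold above small replicate 2 and within 0.5 of small replicate 1. GNAS, the G protein subunit that couples the gonadotropin receptors to cyclic AMP, had 1729 and 1478 in medium theca, against 119 and 1175 in small theca. Its brightest probe set had 3888 and 3927 in medium theca, against 1253 and 3371 in small theca (0.92 ± 0.40), and another one differed by -0.74 ± 0.49. TIMP2, an inhibitor of matrix proteases, had 373 and 239 in medium theca, against 24.7 and 189 in small theca on 1 probe set, while the brightest one had 6269 and 6364, against 9518 and 6040. Probe sets of 1 gene thus disagreed, and this went with the array. Among 2151 genes with several tested probe sets the median range of the change within a gene was 0.804 against small replicate 1 and 0.358 against small replicate 2. The range reached 2-fold in 829 and in 180 of these genes. The part of the 3' tilt of small replicate 1 in these differences was not tested.

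The theca and granulosa changes between medium and small follicles were not told apart by the test of their difference. By limma 0 of 17478 probe sets passed for the interaction, with 432 at an unadjusted p under 0.05, and the lowest adjusted p was 0.9996. In granulosa cells 1 probe set was called between the same sizes. Across tested probe sets the changes of both layers correlated with a Pearson coefficient of 0.227 and a Spearman coefficient of 0.193, given as a description since probe sets are not independent. STC1, named after its values were seen, differed by 1.77 in theca and -0.59 in granulosa (difference 2.36 ± 0.59, limma interaction adjusted p = 0.9996).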

How the data were processed

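RNA of bovine theca and granulosa cells was hybridised to Affymetrix arrays of 1 colour, 2 per group in 6 groups. The deposited values were signal intensities on a linear scale, scaled by the authors to a 2% trimmed mean of 125 on every array; the sources used here name no software or settings. Of 24128 probe sets 112 were controls; of the other 24016, 13292 had 1 gene symbol, 86 several and 10638 none, and 13263 matched the RefSeq gene table of ARS-UCD2.0, used for names only. Values were turned into log2(signal + 16), which understates changes of dim genes. Fold changes, gaps and counts of 2-fold differences are on this scale. Probe sets with a group mean above 22.5, the 40th percentile of the whole table, in any of the 6 groups entered the test (17478). All 12 arrays entered 1 limma model of group means (limma 3.58.1, R 4.3.3; 6 residual and 7.98 prior degrees of freedom, prior SD 0.377). The script was tested on simulated data. Calls need a Benjamini-Hochberg adjusted p under 0.05 over all tested probe sets. Errors are standard errors of the model, and the number of arrays limits the precision.

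The members and the 32 gene lists (621 entries, 492 with a probe set) were chosen with earlier results of these data known. In the lists a gene is represented by its brightest probe set. The genes named are 13 key follicle genes, the called genes with the largest changes whose arrays do not overlap, and called list members, up to 4 per list; all others were named after their values were seen. Pseudocount, filter, scaling, arrays in the fit, variance prior, array weights, a replicate block and each array left out were tried as alternatives. No sequences or coordinates were used here.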

Additional observations from a re-analysis of the deposited data

How the results depend on the processing

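Counts of called probe sets were small under nearly all settings. Against 2 calls, both higher, there were 0 with log2(signal + 1), with no filter, with theca arrays only, with the 4 arrays only, with array weights and with both arrays that stand apart (theca small replicate 1 and granulosa large replicate 1) left out. There was 1 (MFAP5) with log2(signal + 64), with the filter at the 60th percentile, with quantile normalization and with the replicate block, and there were 3 with arrays centred on their medians and with limma trend and robust. Leaving out single arrays gave 0 to 244 calls, 0 to 222 of them higher and 0 to 22 lower, and 0 to 1 for the difference between theca and granulosa. The highest counts are those without theca small replicate 2, whose comparison rests on theca small replicate 1. With 1 array left in a group, that array is assumed to vary like the other groups. The labels number replicates 1 and 2 in each group without saying that a number marks a shared animal or day. Deviations of the same number correlated at 0.187 between medium and small theca, and with the replicate block the adjusted p of MFAP5 was 0.0468 (limma). Over the settings 1823 values were taken for 115 probe sets, some of them without a gene symbol. Of these values 1765 kept direction and side of the threshold, 20 lost a call, 29 gained one and 9 changed sign, all of them uncalled. INSL3 was 0.12 with quantile normalization. Without theca small replicate 1, FSHR was -0.76 and STAR 0.50, the same as with both arrays that stand apart left out. CYP17A1 was -0.53 without theca small replicate 2 and -0.00646 without theca medium replicate 2, and without theca medium replicate 1 FSHR was -0.31 and LOC281376 -0.56. Over all single arrays left out, the values ran from -0.76 to 1.15 for FSHR, from -1.54 to 0.50 for STAR, from -0.53 to 0.91 for CYP17A1 and from -0.56 to 4.11 for LOC281376. The causes were not tested. The 6538 probe sets under the filter were not tested, and their changes ran from -1.14 to 1.14.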
